A study of Mus musculus with 6 samples.

Results

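Ion channels of endosomes, lysosomes and melanosomes let calcium, sodium and other cations leave these organelles or enter the cell, and 10 such genes were followed here in 2 immortal mouse melanocyte lines: the mucolipins Mcoln1, Mcoln2 and Mcoln3, the TRP channels Trpm1, Trpm4, Trpm7, Trpv2 and Trpv4, and the 2-pore channels Tpcn1 and Tpcn2. They are 10 of 22180 genes that had a probe set with exactly 1 gene symbol. The genes were listed with earlier results of these data known, and the probe set of each was chosen by its mean over all 6 arrays, which mattered for Trpv2 alone, the only one of the 10 with 2 such probe sets. The p-values below therefore describe these genes and are not independent evidence that they were worth listing.

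The Sox10LacZ/+ line carries 1 Sox10 allele with a LacZ insertion (Sox10LacZ/+) on an Ink4a-Arf null background and was made from mice 3 days old. It was compared with the line melan-Ink4a-Arf-1, which the labels give as syngeneic control, as Cdkn2a tm1RDp/tm1RDp, and also under the name melan-a. Both are labelled as null for Ink4a-Arf (Cdkn2a), a tumour suppressor locus, both come from mice backcrossed to C57BL/6J, and both were cultured in 10% serum with 200 nM of a phorbol ester, an activator of protein kinase C, and 200 pM of cholera toxin, which raises cyclic AMP. Each line was measured on 3 one-colour arrays, each genotype is 1 line, and so line cannot be told apart from genotype. Whether the replicates were separate cultures is not in the labels, so the p-values reflect array-to-array spread alone, which may be technical.

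TRP channels are cation channels that answer to lipids, calcium, heat, osmotic or mechanical stimuli. Mucolipins and 2-pore channels sit in endosomes and lysosomes, where the phosphoinositide made by the kinase PIKfyve opens them, and in pigment cells they act on melanosomes, which are organelles related to lysosomes. Trpm1, once named melastatin, is a long-known melanocyte gene and also hosts the microRNA gene Mir211.

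The mRNA of 5 of the 10 channel genes differed between the lines. Mcoln3, Trpv4 and Trpv2 fell in the Sox10LacZ/+ line, and Mcoln2 and Trpm1 rose. Mcoln1, Trpm4, Trpm7, Tpcn1 and Tpcn2 did not pass the test. The fall of Mcoln3 was the 6th largest of all genes and that of Trpv4 the 67th. The test was limma on the log2 values of all genes, with Benjamini-Hochberg adjustment across the whole table and a limit of 0.05. Over all genes 13.4% passed, 7.46% higher and 5.92% lower in the Sox10LacZ/+ line. Passing genes with a log2 difference of at least 1 in size made up 3.53% of all genes, and 4 of the 10 channel genes were among them. Arrays of one line all lay above those of the other for these 5 channel genes, and for 31.6% of all genes. Since the channel genes were listed with such results in view, nothing is read from these shares about them as a group. In 3 arrays against 3 the smallest exact permutation p is 0.1, and each of these 5 genes reached it.

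**Figure D1:**
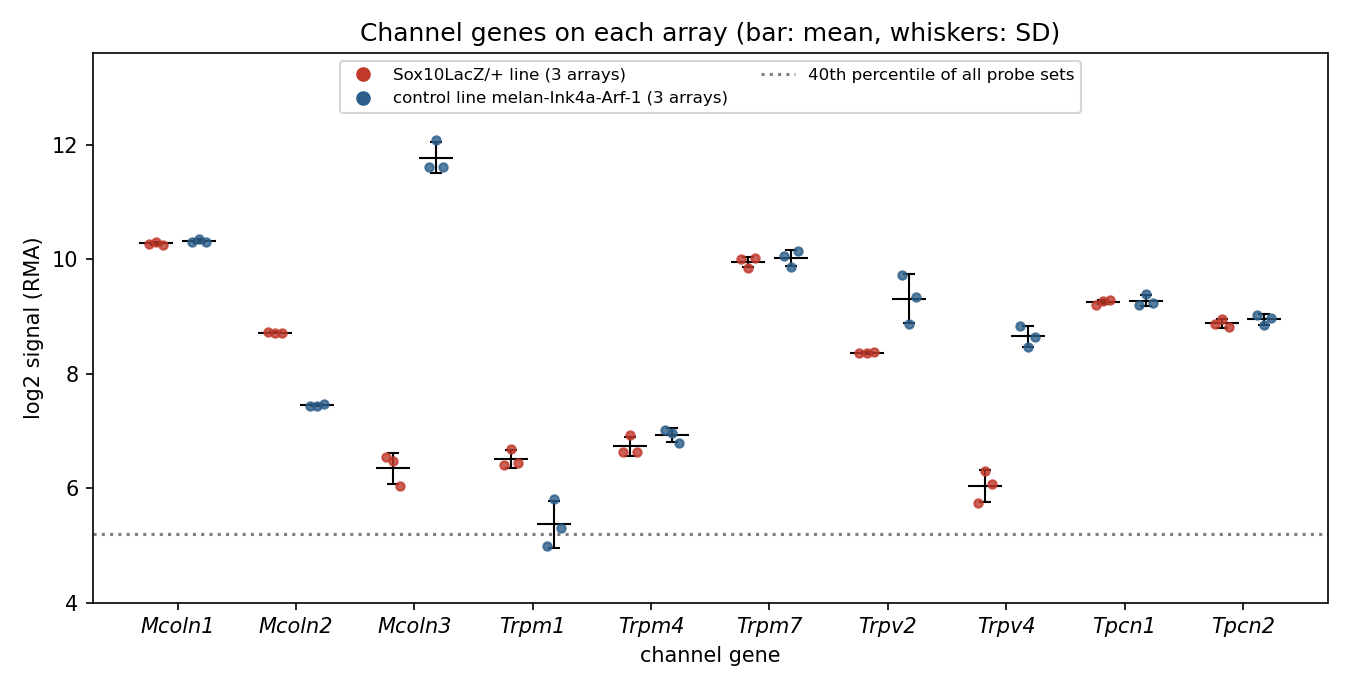
Log2 RMA signal (vertical axis) of the 10 channel genes (horizontal axis) on each of 6 arrays, with the Sox10LacZ/+ line left of the control line for each gene. Bars are means of 3 arrays, whiskers the SD, and the dotted line the 40th percentile of all probe sets (5.20). Mcoln3 and Trpv4 lie far lower in the Sox10LacZ/+ line, Mcoln2 and Trpm1 higher. Heights of different genes come from different probes and are not comparable.

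Sequence around an annotated start is shown for the 3 mucolipins, because 1 of them fell, 1 rose and 1 did not pass. Each window runs from 250 bases before to 50 bases after the RefSeq start site, 5′ to 3′ in the direction of the gene (build GRCm38.p6). The windows are chr3:146121541-146121840 for Mcoln3, chr3:146149924-146150223 for Mcoln2 and chr8:3500269-3500568 for Mcoln1, all on the plus strand. Those of Mcoln3 and Mcoln2 lie inside the span annotated for the gene, so for these genes the sequence before the outermost start is not shown and was not searched. Capitals mark the 4 hexamers searched on both strands: ACAAAG and ACAATG, short forms of the SOX family motif, and CACGTG and CATGTG, E-boxes of the kind that MITF and its relatives bind. CACGTG is its own reverse complement, and no match in these windows overlaps another.
Mcoln3: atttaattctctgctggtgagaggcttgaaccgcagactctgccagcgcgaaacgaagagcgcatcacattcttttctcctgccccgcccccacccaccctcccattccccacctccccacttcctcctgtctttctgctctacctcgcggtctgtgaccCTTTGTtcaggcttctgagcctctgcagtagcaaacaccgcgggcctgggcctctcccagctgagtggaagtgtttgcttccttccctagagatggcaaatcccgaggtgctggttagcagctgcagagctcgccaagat
Mcoln2: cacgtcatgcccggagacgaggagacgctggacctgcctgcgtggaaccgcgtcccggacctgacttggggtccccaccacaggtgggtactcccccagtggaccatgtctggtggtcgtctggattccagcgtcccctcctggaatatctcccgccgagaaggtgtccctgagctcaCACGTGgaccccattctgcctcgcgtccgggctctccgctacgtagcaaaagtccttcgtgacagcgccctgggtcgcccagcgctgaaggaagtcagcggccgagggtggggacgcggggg
Mcoln1: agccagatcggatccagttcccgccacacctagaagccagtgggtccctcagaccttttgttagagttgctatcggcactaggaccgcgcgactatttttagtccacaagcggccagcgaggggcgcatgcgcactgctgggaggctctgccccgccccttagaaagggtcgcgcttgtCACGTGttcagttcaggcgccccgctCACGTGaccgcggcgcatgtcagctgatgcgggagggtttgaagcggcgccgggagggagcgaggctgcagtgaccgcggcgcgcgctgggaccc

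The Mcoln3 window held 1 SOX hexamer on the reverse strand, 90 bases before the start, and no E-box. Mcoln2 held 1 E-box, 72 bases before the start, and Mcoln1 held 2, 71 and 45 bases before it. Of 32851 windows of this length in the table, 28.6% hold either SOX hexamer and 20.4% either E-box. Windows were found for 8 of the 10 genes (11 windows in all). E-boxes were in those of 4 genes, Mcoln1, Mcoln2, Trpm1 and Trpm7, and a SOX hexamer in that of Mcoln3 alone. Both genes that rose thus held an E-box, as did 2 that did not pass, and the windows of Trpv2, Trpv4 and Tpcn2 held none of the 4 hexamers. These are matches of letters and do not show that a factor binds.

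For Trpm1, with 2 annotated starts, stretches of up to 18 bases on each side of its E-boxes are shown, since it is the other gene that rose. The first lies at chr7:64153676-64153717, 141 bases before the upstream start. The second, at chr7:64185212-64185253, begins its E-box 229 bases before the downstream start, and the third, at chr7:64185477-64185508, has it on the reverse strand 36 bases after that start. All are written on the plus strand, which is that of the gene.
Trpm1 upstream start: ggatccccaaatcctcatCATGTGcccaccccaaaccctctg
Trpm1 downstream start, before: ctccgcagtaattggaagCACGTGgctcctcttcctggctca
Trpm1 downstream start, after: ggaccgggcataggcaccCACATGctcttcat

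Among the mucolipins, Mcoln3 (TRPML3, a calcium-permeable channel of early endosomes and lysosomes) is the gene whose varitint-waddler mutations cause deafness and loss of coat pigment in mice. Its signal was 6.54, 6.47 and 6.03 on the Sox10LacZ/+ arrays, against 11.61, 12.08 and 11.61 on the control arrays. Every control array thus lay over 5 log2 units above every Sox10LacZ/+ array. The means were 6.34 ± 0.28 and 11.77 ± 0.27 (SD, n = 3 each), a log2 difference of −5.42 (SE 0.17, 95% interval −5.82 to −5.02, limma adjusted p 5.64e-07), or 42.9-fold when written as control over Sox10LacZ/+. In the Sox10LacZ/+ line it lay above 5.20, the 40th percentile of the probe sets, which is used here as a mark of dim signal because the table has no detection call.

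Mcoln2 (TRPML2), which lies next to Mcoln3 and whose protein is found on recycling endosomes, moved the opposite way. It read 8.72, 8.71 and 8.71 in the Sox10LacZ/+ line, against 7.44, 7.44 and 7.47 in the control line. The arrays within a line differed by at most 0.04, and the lines did not overlap. The log2 difference was 1.26 (SE 0.07, 95% interval 1.11 to 1.42, limma adjusted p 8.61e-06), a 2.40-fold higher signal.

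Mcoln1 (TRPML1), the lysosomal calcium channel whose loss causes mucolipidosis type IV in humans, read 10.27, 10.29 and 10.25 in the Sox10LacZ/+ line, against 10.29, 10.35 and 10.30 in the control line. Its ranges overlapped at 10.29. The difference of −0.04 did not pass (adjusted p 0.786), and its 95% interval, −0.20 to 0.12, leaves room for small changes in either direction.

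The 3 mucolipins were also compared within each array, which removes anything that scales a whole array. Mcoln3 minus Mcoln2 was −2.18, −2.24 and −2.68 on the Sox10LacZ/+ arrays, against 4.17, 4.65 and 4.14 on the control arrays. The line difference of this gap was −6.69 log2 units, with an exact permutation p of 0.1, the smallest possible. For Mcoln3 minus Mcoln1 it was −5.38, and for Mcoln2 minus Mcoln1 1.30, with the same p. Across the 8 such pairs that were compared, the adjusted p of the 6 pairs at this floor was 0.133, so none could pass by this permutation test with 3 arrays a line. These values show unequal differences between the lines and no ranking of levels.

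**Figure D2:**
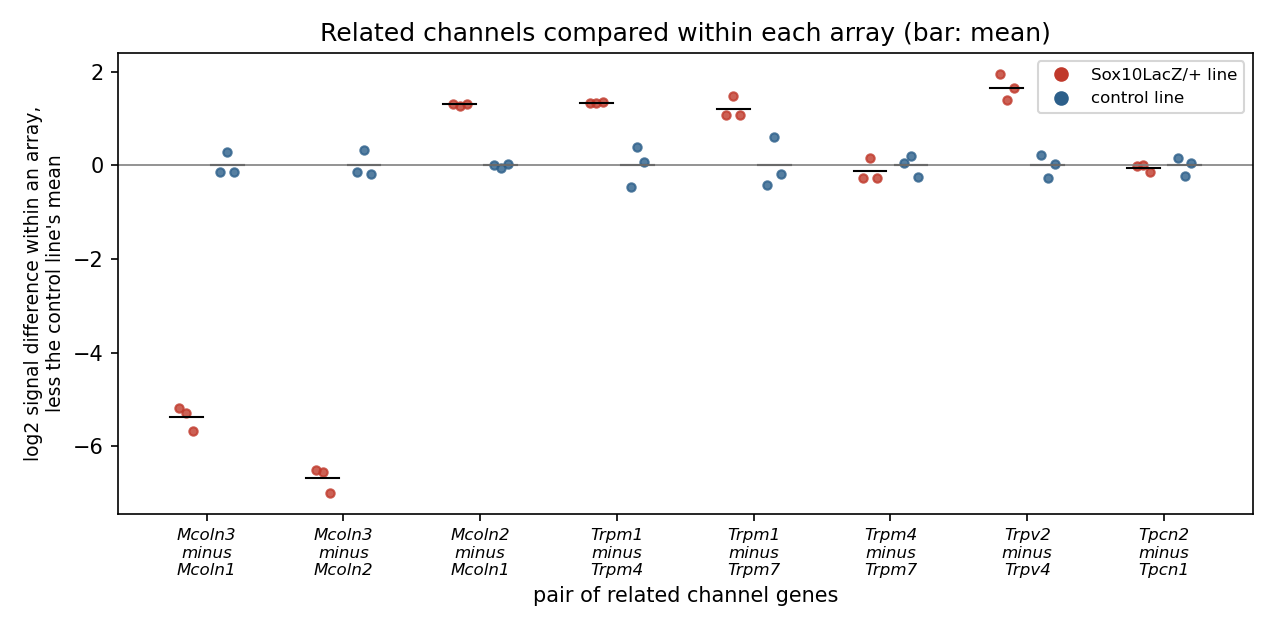
Log2 signal of one channel gene minus that of a relative on the same array, less the mean of the control arrays (vertical axis), for 8 pairs (horizontal axis), with Sox10LacZ/+ points left of control points and bars at the mean of 3 arrays. In 6 pairs the lines do not overlap, most widely for Mcoln3 minus Mcoln2 (−6.69), while Trpm4 minus Trpm7 (−0.13) and Tpcn2 minus Tpcn1 (−0.05) overlap.

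Mcoln3 and Mcoln2 are neighbours on chromosome 3 (146093277 to 146141808 and 146149796 to 146195514), with 7987 bases between the annotated genes. The next measured gene on the side of Mcoln2, the lysophosphatidic acid receptor gene Lpar3, read 4.92 in the Sox10LacZ/+ and 4.91 in the control line, below the 40th percentile in both. On the side of Mcoln3 the nearest was Syde2, a RhoGAP gene, which rose by 0.47 (SE 0.08, adjusted p 0.00772). The 2 mucolipins thus passed in opposite directions, and Syde2 did not fall. Lpar3, dim in both lines, had little room to show a fall.

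Among the TRPM channels, Trpm1 is needed for light responses of retinal bipolar cells and is a target of MITF in melanocytes. Its signal was 6.41, 6.69 and 6.43 in the Sox10LacZ/+ line, against 4.99, 5.81 and 5.30 in the control line. The lines did not overlap, but the control arrays spread over 0.82 log2 units, and control replicate 1 lay below that percentile. The difference was 1.14 (SE 0.19, 95% interval 0.70 to 1.59, adjusted p 0.00612), a 2.21-fold higher signal. It was 0.95 without control replicate 1 and 1.36 without control replicate 2, and passed in both. The control mean, 5.37 ± 0.41 (SD, n = 3), lay close to the dim mark.

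Mir211 lies within Trpm1 (chromosome 7, 64205806 to 64205911, inside 64153835 to 64269772) on the same strand, and its mature products are shown because the host gene rose. Capitals mark the seed, bases 2 to 8, and the sequences are RefSeq's.
miR-211-5p: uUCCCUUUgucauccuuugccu
miR-211-3p: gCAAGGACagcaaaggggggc
The probe set listed for Mir211 read 5.48, 5.001 and 5.17 in the Sox10LacZ/+ line, against 4.87, 5.26 and 5.57 in the control line, on both sides of the 40th percentile. The lines overlapped, and the difference of −0.02 (SE 0.19, adjusted p 0.968) did not pass. Its 95% interval ran from −0.45 to 0.41, which lies below the interval of Trpm1, though the difference between host and microRNA gene was not tested. The sources used here do not say whether this probe set reads the hairpin or the mature RNA.

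Trpm4 encodes a channel for monovalent cations that calcium opens. It read 6.63, 6.92 and 6.64 in the Sox10LacZ/+ line, against 7.02, 6.97 and 6.79 in the control line. The difference of −0.20 (95% interval −0.45 to 0.05, adjusted p 0.306) did not pass, and the arrays overlapped through Sox10LacZ/+ replicate 2. Trpm7, a channel fused to a kinase that handles magnesium and is needed for melanophore survival in zebrafish, read 10.00, 9.85 and 10.01 in the Sox10LacZ/+ line, against 10.06, 9.87 and 10.15 in the control line. Its difference of −0.07 (95% interval −0.29 to 0.15, adjusted p 0.726) did not pass. Within arrays, Trpm1 minus Trpm4 was −0.22, −0.23 and −0.20 in the Sox10LacZ/+ line, against −2.03, −1.16 and −1.49 in the control line, a gap of 1.34. For Trpm1 minus Trpm7 the gap was 1.21, and for Trpm4 minus Trpm7 −0.13 with an exact permutation p of 0.5.

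Both TRPV channels fell. Trpv4, an osmotically and mechanically gated calcium channel of the plasma membrane, read 5.74, 6.30 and 6.07 in the Sox10LacZ/+ line, against 8.83, 8.47 and 8.65 in the control line. The lowest control array lay over 2 log2 units above the highest Sox10LacZ/+ array. The difference was −2.61 (SE 0.15, 95% interval −2.97 to −2.26, adjusted p 1.62e-05), or 6.12-fold as control over Sox10LacZ/+.

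Trpv2, a channel of the plasma membrane and endosomes that opens to noxious heat in rodents and to cannabinoids, read 8.353, 8.351 and 8.376 in the Sox10LacZ/+ line, against 9.72, 8.87 and 9.34 in the control line. The Sox10LacZ/+ arrays lay within 0.03 of each other and the control arrays spread over 0.85, without overlap. The difference was −0.95 (SE 0.19, 95% interval −1.38 to −0.51, adjusted p 0.013). The call was lost without Sox10LacZ/+ replicate 1 or 2 or control replicate 3, at adjusted p = 0.0528, 0.0535 and 0.0507, and over all alternatives it lay between 0.000461 and 0.0535. The other Trpv2 probe set also did not overlap, with 6.13, 6.02 and 6.25 in the Sox10LacZ/+ line, against 7.43, 6.64 and 6.71 in the control line, a difference of −0.80 (adjusted p 0.0342 when it stands for the gene). With limma over all probe sets, its adjusted p was 0.0781 and did not pass, while that of the first Trpv2 probe set was 0.0382. Within arrays, Trpv2 minus Trpv4 was 2.33 ± 0.28 in the Sox10LacZ/+ and 0.66 ± 0.25 in the control line (SD, n = 3 each), a gap of 1.66 (exact permutation p 0.1).

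The 2-pore channels did not pass. Tpcn2, found on lysosomes and melanosomes and tied to pigmentation in humans, read 8.86, 8.96 and 8.81 in the Sox10LacZ/+ line, against 9.03, 8.84 and 8.97 in the control line. The difference was −0.07 (95% interval −0.26 to 0.12, adjusted p 0.678). Tpcn1, whose protein lies on a broader set of endosomes, read 9.20, 9.27 and 9.28 in the Sox10LacZ/+ line, against 9.19, 9.38 and 9.24 in the control line, a difference of −0.02 (95% interval −0.20 to 0.16, adjusted p 0.912). In both genes the arrays of the lines overlapped, and each interval leaves out a change of 2-fold. Tpcn2 minus Tpcn1 within arrays differed by −0.05 between the lines (exact permutation p 0.7). Slc8b1, the mitochondrial sodium-calcium exchanger gene, with 132 bases between its annotated span and that of Tpcn1, fell by 0.53 on the log2 scale (adjusted p 0.0101), and its call was lost without Sox10LacZ/+ replicate 1 (0.0502).

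**Figure D3:**
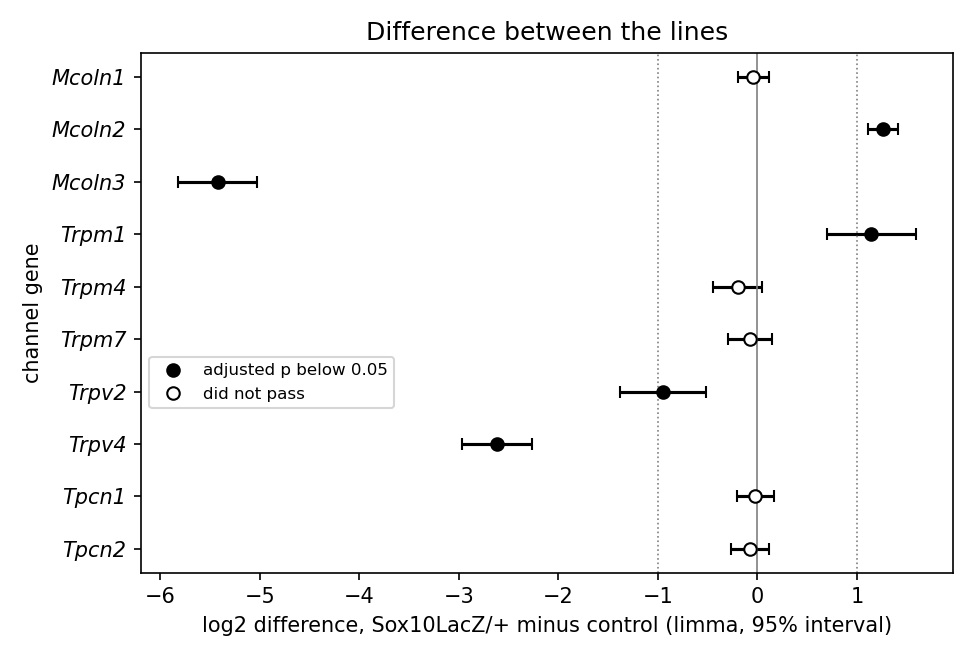
Log2 difference, Sox10LacZ/+ minus control (horizontal axis), of each channel gene (vertical axis) with its 95% interval from limma, on 3 arrays per line. Filled points passed an adjusted p of 0.05 and dotted lines stand at 1 and −1. Mcoln3 (−5.42) and Trpv4 (−2.61) lie farthest to the left, Mcoln2 (1.26) and Trpm1 (1.14) to the right, and 5 genes lie near 0.

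Of the 18 genes next to the channel genes that are not channel genes themselves, 3 rose and 1 fell, beside 13.4% over all genes. Besides Syde2 and Slc8b1 these were Mtmr10, a myotubularin-related gene beside Trpm1 (0.67, SE 0.11, adjusted p 0.00586), and Cenpv, a centromere protein gene beside Trpv2 (0.86, SE 0.14, adjusted p 0.00533). Trpv2 and its neighbour therefore moved in opposite directions, and Trpm1 and Mtmr10 in the same one.

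The genes whose array profile was most like that of each channel gene past 2-fold were taken by the smallest root mean square distance of log2 values centred on their own mean, over 6 arrays of 2 lines. These distances are set mainly by the line difference. For Mcoln3 they were Atp10b, a phospholipid flippase gene (distance 0.22), Pcolce2, an enhancer of procollagen processing (0.26), and Gjc3, a glial connexin gene (0.34), with differences of −5.11, −5.06 and −5.93. For Trpv4 they were Prkg2, a cGMP-dependent kinase gene (0.14), the chemokine gene Cxcl10 (0.17) and Sdr39u1 (0.18).

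The nearest profiles to Mcoln2 were those of the lymphatic growth factor gene Vegfd (0.06), the gamma-glutamyltransferase gene Ggt7 (0.08) and the lysosomal sulfatase gene Sgsh (0.08), with differences between 1.19 and 1.38. Nearest to Trpm1 were St7 (0.09), the sterol-binding protein gene Osbpl3 (0.10) and Fam234b (0.11), with differences between 1.11 and 1.29. All 3 lie on chromosome 6, whereas Trpm1 lies on chromosome 7. Those nearest to Mcoln2 lie on chromosomes X, 2 and 11, and those nearest to Mcoln3 on 11, 9 and 5. Those nearest to Trpv4 lie on 5, 5 and 14. Whether any chromosome is over-represented among like profiles was not tested.

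The other TRP channels showed no call. Of 18 measured, 0 passed by limma, beside 13.4% over all genes. An unadjusted limma p below 0.05 was found for 2, beside 5533 of all 22180 genes. Below the 40th percentile in both lines lay 12, beside 7249 of all genes, so little is read from the lack of calls. Of the listed channels with the highest signal, Trpc1, a subunit of calcium entry channels, differed by −0.29 (SE 0.12, adjusted p 0.17). Trpc2, a pheromone-sensing channel gene of rodents, differed by 0.11 (SE 0.07, adjusted p 0.445). The median difference was −0.06, beside 0.001 over all genes and −0.07 over the 10 channel genes. No member of this list passed when any single array was left out.

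Other ion transport proteins of endosomes, lysosomes and melanosomes had calls on either side. Of 21 genes, 3 were higher, 3 were lower and 15 missed the threshold (median −0.07). Calls made up 28.6% of this list, beside 13.4% over all genes. Slc9a9, a sodium-proton exchanger gene of recycling endosomes, read 8.22, 8.29 and 8.16 in the Sox10LacZ/+ line, against 5.06, 5.71 and 5.47 in the control line, a rise of 2.81 (SE 0.15, adjusted p 1.08e-05). Slc9a7, the exchanger gene of the trans-Golgi network, rose by 2.001 (SE 0.15, adjusted p 6.84e-05), with the control line below the 40th percentile. Oca2, a melanosomal channel gene whose loss causes albinism, fell by 0.88 (SE 0.09), and the endosomal chloride-proton exchanger gene Clcn5 by 0.71 (SE 0.08).

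Clcn3, a relative of Clcn5, differed by −0.58 and Slc11a2, an endosomal iron transporter gene, by 0.61, both named after their values were seen. Clcn3 lost its call without any single Sox10LacZ/+ array or control replicate 1 (adjusted p up to 0.0539). Without control replicate 2, 4 genes of this list were higher and 6 lower, while calls over all genes also rose, from 2967 to 4222.

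Regulators of the channels counted 4 of 18 higher and 2 lower (median 0.05), or 33.3% beside 13.4% over all genes. Lrrk2, a kinase gene of the lysosome surface, rose by 1.13 (SE 0.16, adjusted p 0.00287). Among the genes that make or turn over the phosphoinositides, Pikfyve rose by 0.40 (SE 0.09). The phosphatase genes Inpp5f and Mtm1 fell by 0.57 (SE 0.08) and 0.41 (SE 0.08). The other listed genes of this kind, Fig4 (0.16), Vac14 (0.18), Mtmr2 (−0.03) and Ocrl (−0.12), did not pass. Tmem163, a zinc transporter gene (0.37), and Lamtor1, an anchor of the Ragulator complex (0.26), also passed and were named after their values were seen. Smaller calls were lost when single arrays were left out. Without Sox10LacZ/+ replicate 3 or control replicate 1, 1 higher and 1 lower were left, and without Sox10LacZ/+ replicate 2, 1 higher and 2 lower. Calls over all genes also fell without these arrays, from 2967 to 1768, 2116 and 1780 in that order. Pikfyve, for one, had an adjusted p of up to 0.0949.

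Calcineurin and the MiT/TFE transcription factors act downstream of lysosomal calcium release. Of 10 genes of this arm, 3 rose, 0 fell and 7 did not pass (median 0.06). Calls made up 30% of this list, beside 13.4% over all genes. Tfec read 7.57, 7.60 and 7.44 in the Sox10LacZ/+ line, against 4.598, 4.70 and 4.51 in the control line, a rise of 2.93 (SE 0.08, adjusted p 3.12e-07), with the control line below the 40th percentile. Mitf rose by 0.67 (SE 0.07, adjusted p 0.000439) and the calcineurin subunit gene Ppp3ca by 0.92 (SE 0.18, adjusted p 0.0133). The Ppp3ca call was lost without any single Sox10LacZ/+ array (adjusted p 0.0518 to 0.0536). Tfeb (−0.10) and Tfe3 (−0.08), the lysosomal regulators of the family, did not pass and were named after their values were seen.

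Among 15 genes of calcium stores and calcium entry, 1 rose, 3 fell and 11 did not pass (median −0.10). Calls made up 26.7% of this list, beside 13.4% over all genes. Stim1, the calcium sensor gene of the endoplasmic reticulum, read 8.05, 8.09 and 8.02 in the Sox10LacZ/+ line, against 10.15, 9.60 and 9.91 in the control line, a fall of 1.84 on the log2 scale (SE 0.13, adjusted p 5.58e-05). The inositol trisphosphate receptor genes moved apart: Itpr3 differed by −2.51 (SE 0.09) and Itpr2 by 0.80 (SE 0.08). A second Itpr3 probe set gave −0.70 (adjusted p 0.00237). The calcium pump gene Atp2b4 differed by −2.60 (SE 0.70, adjusted p 0.0466), with the Sox10LacZ/+ mean, 5.19, below the 40th percentile, and with 5.84 on control replicate 2 beside 8.80 and 8.72 on the other control arrays. Without that array the difference was −3.57, and without any other array the call was lost (adjusted p 0.116 to 0.154), as it was on all 6 arrays with limma's robust variance prior (0.0622).

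**Figure D4:**
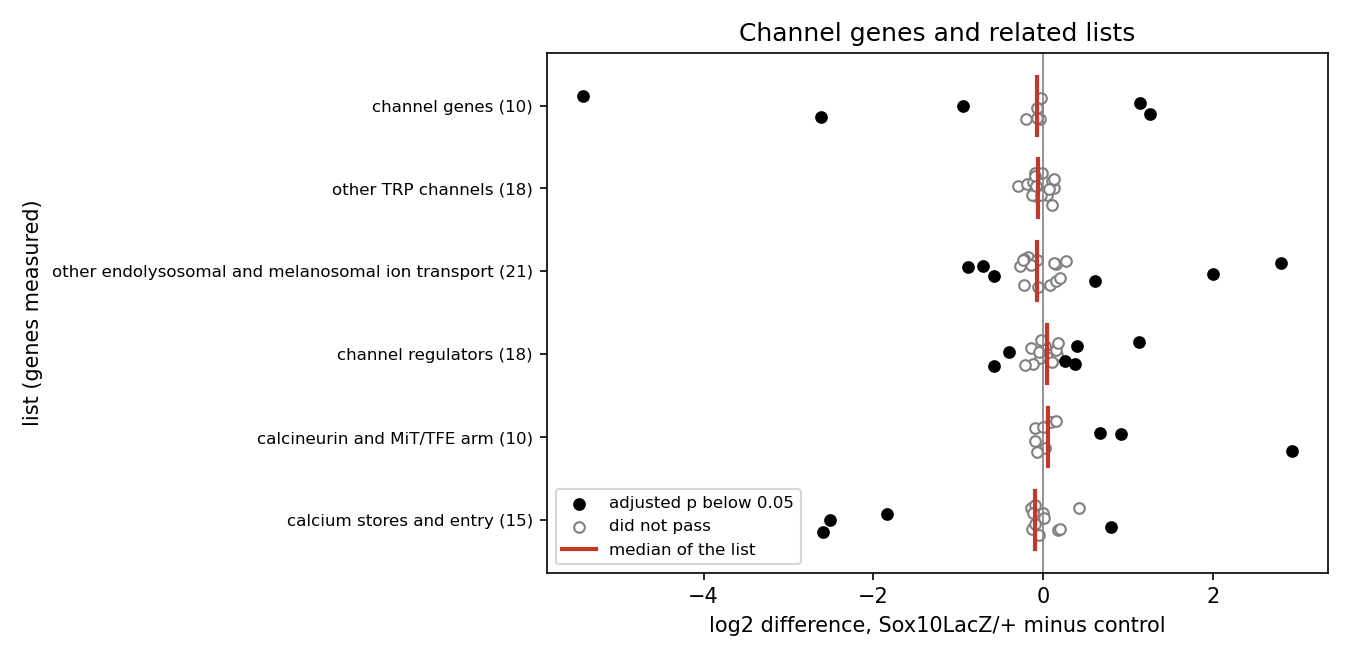
Log2 difference, Sox10LacZ/+ minus control (horizontal axis), of every measured gene of the channel genes and 5 related lists (vertical axis, with the number measured), with filled points for genes that passed, open points for those that did not, and red bars for the median of each list. No other TRP channel passed, and the 3 calls among calcineurin and MiT/TFE genes all lie to the right of 0.

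The 5 related lists together held 19 calls among 82 measured genes (23.2%, beside 13.4% over all genes). These lists were written with earlier results of the data known, and some of their genes were among those results. Without Sox10LacZ/+ replicate 3 the lists held 12 calls, while calls over all genes also fell, from 2967 to 1768.

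The label of the cells and the arrays bears on all these values. Of 7 melanocyte markers 1 rose and 2 fell (42.9%, beside 13.4% over all genes). All stood above the 40th percentile in both lines, so both carry the RNA of melanocytes. Tyr, the key enzyme of melanin synthesis, read 8.65 in the Sox10LacZ/+ and 10.75 in the control line. Dct was lower by 0.68 on the log2 scale, and Mitf was higher by 0.67. The other 4 did not pass, with Mlana at −0.29, Sox10 at −0.18, Tyrp1 at −0.05 and Pmel at 0.22. The probe set of Cdkn2a read 7.07 ± 0.08 in the Sox10LacZ/+ and 7.16 ± 0.12 in the control line (SD, n = 3 each), above the 40th percentile in both although both are labelled null, and which part of the gene it reads is not known here, so it does not check that label. Sox10 differed by −0.18 (adjusted p 0.213), and the sources used here do not say whether its probe set also reads RNA of the LacZ allele. Some markers of other cells differed between the lines, and most did not pass. Of 8 fibroblast markers 3 rose (37.5%, beside 13.4% over all genes). Dcn rose by 5.92, with its control level below the 40th percentile, and Pdgfrb by 4.08. Col1a2 rose by 1.24, or by 2.49 with its second probe set. The other 5 did not pass, with Col1a1 at −0.20, Thy1 at −0.14, Lum at −0.10, Col3a1 at 0.10 and Pdgfra at 0.15. The median difference of the list was 0.13, and the mean level of that list was 7.06 to 7.08 on the Sox10LacZ/+ arrays, against 5.64 to 5.78 on the control arrays. Of 8 leukocyte markers 2 were higher (25%, beside 13.4% over all genes), Cd68 by 1.32 and Fcer1g by 0.36. The other 6 did not pass, with Laptm5 at −0.25, Adgre1 at −0.08, Tyrobp at −0.01, Itgam at 0.005, Cd14 at 0.03 and Ptprc at 0.10. The median difference of this list was 0.02, and its means were 5.45 to 5.49 against 5.24 to 5.34. The pan-leukocyte gene Ptprc read 4.004 against 3.91, below the 40th percentile in both lines. Endothelial markers had 1 of 6 higher (16.7%, beside 13.4% over all genes), Vwf by 0.38, at means of 5.22 to 5.33 against 5.11 to 5.22. Of 7 keratinocyte markers 0 passed by limma (beside 13.4% over all genes), at means of 5.80 to 5.91 against 5.77 to 5.96. At an unadjusted limma p below 0.05 were 2 of them, in opposite directions, beside 5533 of all 22180 genes. The 2 markers were Cdh1 at 0.38 (0.11 with its second probe set) and Dsp at −0.41, below the 40th percentile in both lines. Sfn differed by −0.06. The Fcer1g call was lost without any single Sox10LacZ/+ array or control replicate 1, and that of Vwf without Sox10LacZ/+ replicate 2 or 3 or control replicate 1. Of the keratinocyte markers, 1 was lower without control replicate 1 and 1 higher without control replicate 2. Calls over all genes numbered 2116 and 4222 without these 2 control arrays. The part of these markers in the channel values was not tested, and in bulk RNA fewer cells of a type and less RNA per cell cannot be told apart. Control replicate 2 stood apart from the other control arrays at 2-fold or more for 261 of 22180 genes and for 0 of the 10 channel genes. With so small a share over all genes, nothing is read from this 0. The largest distances of that array among the channel genes were 0.66 for Trpm1, −0.66 for Trpv2 and 0.47 for Mcoln3.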

How the data were processed

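RNA of 6 samples of mouse melanocytes was labelled with biotin and read on one-colour Affymetrix arrays. The authors deposited log2 values of 41345 probe sets, made with RMA per the submitters' processing notes, which also name Partek. The sources used here give no versions or settings. Array medians ran from 5.72 to 5.78, no pair of arrays was identical (0 pairs), and values were used unscaled. An array gives no counts, so the number of arrays limits the precision.

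Probe sets with exactly 1 symbol in the platform annotation numbered 23521. Where a gene had several, that with the highest 6-array mean was kept, giving one row for each of 22180 genes, with no filter on dim genes. Positions are RefSeq's (GRCm38.p6). limma 3.58.1 in R 4.3.3 (lmFit, eBayes, 2-sided) was fitted to all genes, with Benjamini-Hochberg adjustment over all of them. Single values used exact permutation tests over 20 regroupings. The code was tested on simulated data.

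The members, the lists and the tests were chosen with earlier results of these data known. By rule the genes named are the 10 channel genes, their nearest measured neighbours, Mir211, Sox10 and Cdkn2a. Each list gave up to 4 passing members, or the 2 brightest. For each channel gene past 2-fold the 3 most similar profiles were added. Other list members were named after their values were seen. Among them are Clcn3, Slc11a2, Tmem163, Lamtor1, Tfeb, Tfe3 and further genes and markers that did not pass. Replicate numbers did not pair the arrays (correlations of 0.007, 0.016 and −0.004 across genes), so no block was used. The alternatives were other scalings, filters, probe sets, variance priors and array weights, a block and each array left out.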

Additional observations from a re-analysis of the deposited data

How the results depend on the processing

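Of the 5 channel genes that passed, Mcoln2, Mcoln3, Trpm1 and Trpv4 passed and kept their direction under all 15 alternatives run on single genes, with differences of 1.26 to 1.29, −5.52 to −5.27, 0.95 to 1.36 and −2.74 to −2.46, and Trpv2 under 12 (−1.17 to −0.74). The first 4 genes have 1 probe set each, so the choice of probe set could not change their values. The filter, the variance priors and the block also leave a difference as it is and can change only its p-value. With single arrays left out, 4 to 5 channel genes, 1768 to 4222 of all genes and 12 to 24 genes of the related lists passed, fewest over all genes without a Sox10LacZ/+ array and most without control replicate 2. At an adjusted p below 0.01, 1588 genes passed, and with a 2-fold threshold 782, each with 4 channel genes. A replicate block, for numbers that share nothing in the labels, gave 2512 genes, 5 channel genes and 17 of the related lists, and ended the calls of Pikfyve (adjusted p 0.0511), Fcer1g (0.0708) and Lamtor1 (0.104). Values near 0 changed sign. Tpcn1 was 0.00838 with arrays centred on their median, 0.018 with array weights, and −0.0592 to 0.0359 with single arrays left out. Mir211 was 0.011 with centring, 0.00489 with quantile normalization and 0.10 with array weights, and −0.20 to 0.15 with single arrays left out. With single arrays left out, Sfn ran from −0.212 to 0.0865 and Tpcn2 minus Tpcn1 from −0.160 to 0.0291. Scaling moved the median of all genes by at most 0.03, and the cause of these changes was not tested. Trpm1 and Mir211 in the control line lie near the dim mark, which limits their differences.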
